A study of Mus musculus with 11 samples.

Results

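The genes described here encode the BAP1 deubiquitinase complex, the Polycomb repressive complexes PRC2 and PRC1, and 3 further histone deubiquitinases. They are the 43 rows of the gene count table whose mouse symbol belongs to a named list, out of 18756 mouse genes, and all 43 were found and passed the filter on low counts. RNA was sequenced from 11 end-point skin tumours of a genetically engineered melanoma model on C57BL/6, with 5 tumours labelled GNA11 Q209L Bap1 KO, 4 labelled BRAF V600E Bap1 KO and 2 labelled GNA11 Q209L. In the file header the last group has Bap1 as WT, and all others have it as F/F, that is, with floxed alleles. The tables also count human GNA11 Q209L and human BRAF sequences, a CreERT2 sequence and a Flp recombinase sequence. The promoters that drive them and the ages of the mice are not stated in the sources used here. GNA11 Q209L is an activating change of a G protein alpha subunit known from uveal melanoma and blue naevi, and BRAF V600E activates a kinase often mutated in melanoma of the skin.

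Polycomb group proteins keep developmental genes silent. PRC2 methylates H3K27 through EZH1 or EZH2, and PRC1 ubiquitinates histone H2A through RING1 or RNF2 with a partner of the PCGF family. BAP1, a tumour suppressor often lost in metastasising uveal melanoma, removes that ubiquitin together with an ASXL protein.

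Levels are given as CPM, read counts scaled to a common library size and by the trimmed mean of M values (TMM), always in the order of the replicate numbers. Fold changes are log2 values from edgeR's quasi-likelihood test over all 11 libraries, and "past the threshold" means an adjusted p under 0.05 by the Benjamini-Hochberg method over the 17350 genes tested. That test gives no standard error (SE). The SE was derived as the absolute log2 fold change divided by the square root of the F statistic, and the 95% intervals use it. Nothing in the labels says that the tumours of a genotype came from separate animals, and 2 GNA11 Q209L Bap1 KO libraries, replicates 1 and 2, share the number in their titles. P-values therefore measure the spread between these samples.

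Total counts ran between 18338082 and 81035135 per library. The summed level of 10 melanocyte markers was 89525 to 119478 CPM in GNA11 Q209L Bap1 KO tumours, 148 to 720 CPM in BRAF V600E Bap1 KO tumours and 88148 to 91552 CPM in GNA11 Q209L tumours. Of the 10, 9 passed as lower in BRAF V600E Bap1 KO tumours in the comparison with either GNA11 genotype. Of all genes, 16.5% did against GNA11 Q209L Bap1 KO and 9.27% against GNA11 Q209L tumours. Sox10, a neural crest factor, did not pass (adjusted p = 0.116 by edgeR against GNA11 Q209L Bap1 KO and 0.268 against GNA11 Q209L tumours), with 812 to 2103 CPM in GNA11 Q209L Bap1 KO tumours, 1.93, 3.58, 533 and 232 CPM in BRAF V600E Bap1 KO tumours and 527 and 1405 CPM in GNA11 Q209L tumours. None of the 10 was at 0. Salivary and glandular markers summed to 132981 CPM in BRAF V600E Bap1 KO replicate 4 and to at most 49.1 CPM in any other library. The 8 keratinocyte markers summed to 14395 CPM in BRAF V600E Bap1 KO replicate 3, 5671 CPM in replicate 4 of that genotype and 1702 CPM in GNA11 Q209L Bap1 KO replicate 1. In BRAF V600E Bap1 KO replicates 1 and 2 the sums were 179 and 395 CPM, and in all remaining libraries at most 9.13 CPM. Of these 8, 3 passed as lower in GNA11 Q209L Bap1 KO than in BRAF V600E Bap1 KO tumours (37.5%, against 24.7% of all genes). The 8 macrophage markers summed to 6720 CPM in GNA11 Q209L replicate 1. The 8 fibroblast markers summed to 411 to 2473 CPM in GNA11 Q209L Bap1 KO tumours, 3569 to 19604 CPM in BRAF V600E Bap1 KO tumours and 3415 and 11494 CPM in GNA11 Q209L tumours. Of these 8, 7 passed as lower in GNA11 Q209L Bap1 KO than in BRAF V600E Bap1 KO tumours (87.5%, against 24.7% of all genes). The 8 skeletal muscle markers summed to 5896 CPM in BRAF V600E Bap1 KO replicate 4, 35.7 to 284 CPM in the 3 others of that genotype and 6.42 to 107 CPM in the GNA11 tumours. All 8 passed as lower in GNA11 Q209L Bap1 KO than in BRAF V600E Bap1 KO tumours, against 24.7% of all genes. The 8 endothelial markers summed to 341 to 458 CPM in GNA11 Q209L Bap1 KO tumours, 120 to 298 CPM in BRAF V600E Bap1 KO tumours and 501 and 960 CPM in GNA11 Q209L tumours, with no overlap between genotypes. The 8 T cell markers summed to 8.28 to 18.7 CPM in GNA11 Q209L Bap1 KO tumours, 17.3 to 67.5 CPM in BRAF V600E Bap1 KO tumours and 3.34 and 57.4 CPM in GNA11 Q209L tumours. Of these 8, 7 fell in GNA11 Q209L Bap1 KO against BRAF V600E Bap1 KO tumours (87.5%, against 24.7% of all genes). The 26 proliferation genes summed to 529.9 to 1474 CPM in GNA11 Q209L Bap1 KO tumours, 634 to 999.9 CPM in BRAF V600E Bap1 KO tumours and 283.5 and 462 CPM in GNA11 Q209L tumours. The part of these differences in the results below was not tested. In bulk tumours, fewer cells of a type and less RNA per cell cannot be told apart.

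RefSeq promoter windows of 300 bases, 250 before and 50 after the annotated start (build GRCm38.p6, not the mm9 build of the counts), were found for 37 of the 43 genes. Of these, 3 windows are shown. Bap1 is the targeted gene, L3mbtl2 had the largest rise and the smallest p of the genes described here against BRAF V600E Bap1 KO tumours, and Phf19 was highest in 4 libraries of GNA11 Q209L Bap1 KO. Capitals mark matches on either strand to the E-box CACGTG, the E2F core GCGGGAA or the ETS core CCGGAAG, each sequence reading 5′ to 3′ along its gene.
Bap1 (chr14:31251239-31251538, plus strand): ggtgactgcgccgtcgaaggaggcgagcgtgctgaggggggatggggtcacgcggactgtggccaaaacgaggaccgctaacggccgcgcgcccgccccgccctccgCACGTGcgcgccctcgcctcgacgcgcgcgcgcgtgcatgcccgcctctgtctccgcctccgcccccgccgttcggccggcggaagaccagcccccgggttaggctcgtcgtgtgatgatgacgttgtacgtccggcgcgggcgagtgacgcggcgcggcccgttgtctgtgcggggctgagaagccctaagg
L3mbtl2 (chr15:81663639-81663938, plus strand): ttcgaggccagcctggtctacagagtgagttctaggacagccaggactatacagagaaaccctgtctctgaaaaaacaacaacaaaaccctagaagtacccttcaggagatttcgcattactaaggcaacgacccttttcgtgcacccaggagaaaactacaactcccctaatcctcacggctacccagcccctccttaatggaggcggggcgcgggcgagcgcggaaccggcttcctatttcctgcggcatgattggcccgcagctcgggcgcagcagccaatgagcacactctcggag
Phf19 (chr2:34913927-34914226, minus strand): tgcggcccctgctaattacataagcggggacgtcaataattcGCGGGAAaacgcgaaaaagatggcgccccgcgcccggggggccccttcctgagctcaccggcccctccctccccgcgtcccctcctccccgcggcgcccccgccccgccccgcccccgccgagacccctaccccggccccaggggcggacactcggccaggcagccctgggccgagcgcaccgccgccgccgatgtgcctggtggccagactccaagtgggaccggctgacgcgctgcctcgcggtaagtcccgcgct
The Bap1 window holds CACGTG and the Phf19 window GCGGGAA, while none of the 3 motifs is in the L3mbtl2 window. Over all 37 genes, 11 (29.7%) have a window with CACGTG, among them Bmi1, Mbd5, Phc3 and Usp16, against 8.09% of 27025 genes. GCGGGAA is in a window of 5 genes (13.5%, against 5.29%), which are Asxl1, Mbd5, Pcgf5, Phf19 and Suz12, and CCGGAAG in windows of 7 genes (18.9%, against 9.93%). The 27025 genes are all those with a window and are not limited to genes tested here. The sets compared are thus unlike, and whether the motifs are particular to these 37 genes was not tested. Of the 7 genes with a window that rose against BRAF V600E Bap1 KO tumours 1 holds CACGTG, as does 1 of the 6 that fell.

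Bap1 RNA did not separate GNA11 Q209L Bap1 KO tumours from GNA11 Q209L tumours, and it was lowest in BRAF V600E Bap1 KO tumours. Its level was 102, 129.8, 103, 102 and 170.1 CPM in GNA11 Q209L Bap1 KO tumours, 59.9, 57.6, 71.3 and 54.7 CPM in BRAF V600E Bap1 KO tumours and 85.1 and 137 CPM in GNA11 Q209L tumours. The range of GNA11 Q209L Bap1 KO tumours lies across that of GNA11 Q209L tumours, and every BRAF V600E Bap1 KO tumour lies below every tumour of the other genotypes. Against GNA11 Q209L tumours the log2 fold change in GNA11 Q209L Bap1 KO tumours was 0.13 ± 0.28 (SE, 95% interval -0.50 to 0.75, adjusted p = 0.92). Without GNA11 Q209L Bap1 KO replicate 5 it was -0.05, without GNA11 Q209L replicate 1 it was -0.18, and without GNA11 Q209L replicate 2 it was 0.58. Counts per gene do not show whether exons were removed, and the sources used here do not name the deleted exons. These values check neither the presence nor the absence of the knockout.

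The header repeated at the foot of the table gives NA as the Bap1 status of BRAF V600E Bap1 KO replicates 2 and 4, where the header at its top gives floxed alleles. Bap1 stood at 57.6 and 54.7 CPM in those 2 tumours and at 59.9 and 71.3 CPM in the other 2 of the genotype. In GNA11 Q209L Bap1 KO tumours Bap1 rose over BRAF V600E Bap1 KO tumours by 1.00 ± 0.23 on the log2 scale (SE, adjusted p = 0.00811), a fold of 1.99. Without replicates 2 and 4 that value was 0.88 with an adjusted p of 0.0774, and with library totals in place of TMM it was 0.58 with an adjusted p of 0.0579. The human GNA11 Q209L sequence stood at 6.52 to 17.4 CPM in GNA11 Q209L Bap1 KO tumours, at most 0.0562 CPM in BRAF V600E Bap1 KO tumours, and 23.0 and 125 CPM in GNA11 Q209L tumours. The human BRAF sequence stood at 0.865 to 2.76 CPM in BRAF V600E Bap1 KO tumours and at most 0.0543 CPM elsewhere. CreERT2 stood at 181 to 326 CPM in GNA11 Q209L Bap1 KO tumours, 0.169, 0.204, 24.7 and 0.918 CPM in BRAF V600E Bap1 KO tumours and 85.6 and 129 CPM in GNA11 Q209L tumours. Flp recombinase was at most 0.418 CPM in replicate 3 of both Bap1 KO genotypes and in both GNA11 Q209L tumours, and at 36.4 CPM or more in the 7 others.

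**Figure D1:**
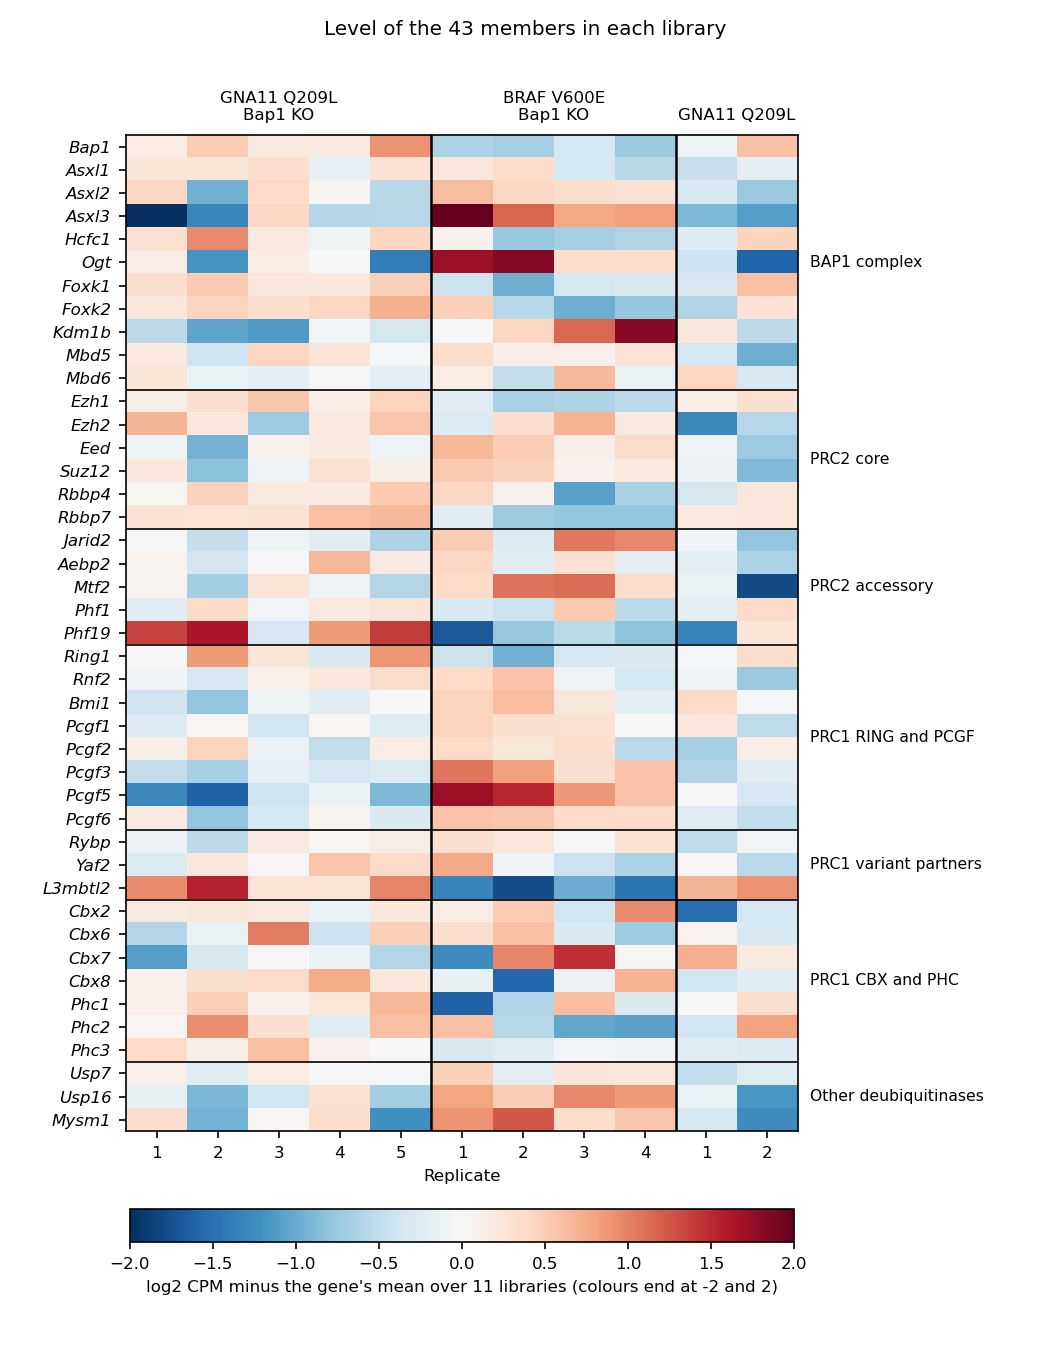
Level of the 43 genes (rows, grouped by complex) in the 11 libraries (columns, grouped by genotype and numbered by replicate), as log2 CPM minus the gene's own mean over the libraries, with colours ending at -2 and 2. L3mbtl2, Rbbp7, Ezh1 and Bap1 are low in all 4 BRAF V600E Bap1 KO libraries, and Pcgf3, Pcgf5, Asxl3 and Usp16 are high there.

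Levels of different genes can be compared only per kilobase of exon. In GNA11 Q209L Bap1 KO tumours the highest were the histone chaperone Rbbp7 with 81.9 ± 10.9 CPM per kb (SD, n = 5), Phc2 with 60.8 ± 19.1, Rbbp4 with 50.9 ± 7.35, Ogt with 38.4 ± 17.4 and Bap1 with 35.1 ± 8.60 CPM per kb. There each of these genes overlaps the next in its range, so neighbours in this order do not differ beyond their spread, while Rbbp7 lies above Rbbp4, Ogt and Bap1 without overlap. In BRAF V600E Bap1 KO tumours Ogt came first with 112 ± 58.2 CPM per kb (SD, n = 4), and Rbbp7 followed with 39.96 ± 7.89, Rbbp4 with 36.7 ± 16.5 and Phc2 with 36.3 ± 22.6 CPM per kb. In GNA11 Q209L tumours Rbbp7 led again with 69.7 ± 2.35 CPM per kb (SD, n = 2). Asxl3 was the lowest in every genotype, with 0.0731 ± 0.0494 CPM per kb in GNA11 Q209L Bap1 KO tumours, 0.464 ± 0.490 in BRAF V600E Bap1 KO tumours and 0.0539 ± 0.00609 in GNA11 Q209L tumours. Pcgf5 was the next lowest in the GNA11 tumours, with 0.581 ± 0.243 CPM per kb in GNA11 Q209L Bap1 KO and 0.886 ± 0.143 in GNA11 Q209L tumours. Of the catalytic pairs in GNA11 Q209L Bap1 KO tumours, Ezh1 stood at 19.5 ± 2.51 and Ezh2 at 12.8 ± 4.16 CPM per kb, and Ring1 at 18.9 ± 6.67 and Rnf2 at 15.6 ± 2.84 CPM per kb.

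The comparison of GNA11 Q209L Bap1 KO tumours with the GNA11 Q209L tumours asks what goes with the Bap1 label under the same oncogene. None of the 43 genes passed the threshold in edgeR's quasi-likelihood test, where 0.0288% of all genes did (5 of 17350), and 5 of the 43 had an unadjusted p under 0.05 (11.6%, against 11.4% of all genes). All 5 were higher in GNA11 Q209L Bap1 KO tumours, as were 3.84% of all genes at that p. DESeq2 and limma voom also called none of the 43, among 439 and 5 genes called. The log2 fold change was above 0 for 37 of the 43 genes (86%, against 49.3% of all genes), with a median of 0.26 against -0.004 over all genes tested. This shift was not particular to the 43. Among lists described below, the median was 0.31 for accessory partners and 0.27 for H3K27 demethylases and COMPASS. It was 0.16 for other deubiquitinases and 0.06 for BAP1-related ubiquitin factors. Without GNA11 Q209L replicate 1, 11 of the 43 genes had the other sign, Bap1, Hcfc1 and L3mbtl2 among them. The 6 below 0 were Kdm1b (-0.47), Mbd6 (-0.15), Bmi1 (-0.46), Pcgf1 (-0.06), Pcgf5 (-0.61) and Cbx7 (-0.84). Groups did not overlap for 7 genes (16.3%, against 16.6% of all genes), with Asxl1, Rbbp7, Cbx2, Cbx8, Phc3 and Usp7 higher (14%, against 7.58%) and Cbx7 lower (2.33%, against 9.01%) in GNA11 Q209L Bap1 KO tumours. The 5 and 2 libraries of the pair limit this comparison: a permutation of single values could not go below a two-sided exact p of 0.0952. Both GNA11 Q209L tumours were also high in Xist, given below, and almost without Flp recombinase. Of the GNA11 Q209L Bap1 KO tumours only replicate 3 shared this. The sums of the fibroblast, endothelial and proliferation genes, given above, also did not overlap between these genotypes. All these differences and the Bap1 label can hardly be told apart.

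Of the 5 genes with an unadjusted p under 0.05, none passed after adjustment. Ezh2, the H3K27 methyltransferase of dividing cells, had 48.2, 34.8, 18.1, 34.4 and 44.4 CPM in GNA11 Q209L Bap1 KO tumours, 24.8, 38.0, 48.4 and 34.2 CPM in BRAF V600E Bap1 KO tumours and 12.3 and 20.3 CPM in GNA11 Q209L tumours. All GNA11 Q209L Bap1 KO tumours but replicate 3 lie above both GNA11 Q209L tumours. Over GNA11 Q209L tumours the log2 difference was 1.14 ± 0.42 (SE, adjusted p = 0.354 by edgeR's quasi-likelihood test). Replicate 3 also had the lowest sum of the 26 proliferation genes of its genotype, at 529.9 CPM, and the GNA11 Q209L tumours had the lowest sums of all. None of those 26 genes passed the threshold in this comparison, 24 had an unadjusted p under 0.05 (against 11.4% of all genes), and their median log2 fold change was 1.70. The part of proliferation in the Ezh2 values was not tested.

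Phf19, a Polycomb-like protein that ties PRC2 to H3K36-methylated chromatin, stood at 24.2, 29.2, 7.47, 17.2 and 25.2 CPM in GNA11 Q209L Bap1 KO tumours, 2.91, 5.59, 6.48 and 5.42 CPM in BRAF V600E Bap1 KO tumours and 3.74 and 11.2 CPM in GNA11 Q209L tumours. Replicate 3 of GNA11 Q209L Bap1 KO again sits low, below the higher GNA11 Q209L tumour, and the other 4 are above every remaining library. The log2 fold change against GNA11 Q209L tumours was 1.47 ± 0.62 (SE, adjusted p = 0.407). Against BRAF V600E Bap1 KO tumours, where the groups do not overlap, Phf19 rose by 2.02 ± 0.48 (SE, adjusted p = 0.00928 by edgeR's quasi-likelihood test).

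Mbd5, a methyl-binding-domain protein that joins the BAP1 complex, had 25.1, 16.7, 29.8, 26.5 and 21.7 CPM in GNA11 Q209L Bap1 KO tumours, 28.3, 24.3, 23.7 and 26.5 CPM in BRAF V600E Bap1 KO tumours and 17.4 and 11.1 CPM in GNA11 Q209L tumours. GNA11 Q209L replicate 2 was the lowest library, and the level in BRAF V600E Bap1 KO tumours was within the GNA11 Q209L Bap1 KO range. Cbx2, a chromodomain reader of PRC1, had 14.8, 15.3, 14.8, 11.9 and 15.2 CPM in GNA11 Q209L Bap1 KO tumours, 14.5, 18.7, 10.03 and 25.4 CPM in BRAF V600E Bap1 KO tumours and 4.53 and 10.3 CPM in GNA11 Q209L tumours, with both GNA11 Q209L tumours below every GNA11 Q209L Bap1 KO tumour. Phc3, which polymerises PRC1, had 123, 102, 141, 99.6 and 92.7 CPM in GNA11 Q209L Bap1 KO tumours, 75.8, 79.0, 89.9 and 87.9 CPM in BRAF V600E Bap1 KO tumours and 80.3 and 77.0 CPM in GNA11 Q209L tumours. Its GNA11 Q209L Bap1 KO tumours all lay above those of the other genotypes. Log2 fold changes against GNA11 Q209L tumours were 0.75 ± 0.30 for Mbd5 (SE, adjusted p = 0.394), 0.96 ± 0.43 for Cbx2 (adjusted p = 0.44) and 0.50 ± 0.23 for Phc3 (adjusted p = 0.438).

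The next 3 genes by p did not reach an unadjusted p of 0.05. Asxl1, which activates BAP1, had 107, 107, 114, 81.4 and 111 CPM in GNA11 Q209L Bap1 KO tumours, 107, 118, 71.4 and 62.0 CPM in BRAF V600E Bap1 KO tumours and 66.0 and 79.4 CPM in GNA11 Q209L tumours, and its log2 fold change against GNA11 Q209L tumours was 0.52 ± 0.29 (SE, unadjusted p = 0.101, adjusted p = 0.551 by edgeR). Aebp2, a PRC2 cofactor, had 109, 80.7, 104, 163 and 116 CPM in GNA11 Q209L Bap1 KO tumours, 139, 90.1, 128 and 90.9 CPM in BRAF V600E Bap1 KO tumours and 90.9 and 67.0 CPM in GNA11 Q209L tumours, with a log2 fold change of 0.54 ± 0.31 (SE). Bmi1, a PCGF protein of canonical PRC1, had 40.2, 30.9, 50.04, 45.9 and 52.5 CPM in GNA11 Q209L Bap1 KO tumours, 71.8, 81.2, 62.2 and 46.6 CPM in BRAF V600E Bap1 KO tumours and 69.8 and 51.4 CPM in GNA11 Q209L tumours, with a log2 fold change of -0.46 ± 0.28 (SE). Asxl1 is the only gene of these 3 whose GNA11 Q209L Bap1 KO and GNA11 Q209L groups do not overlap.

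**Figure D2:**
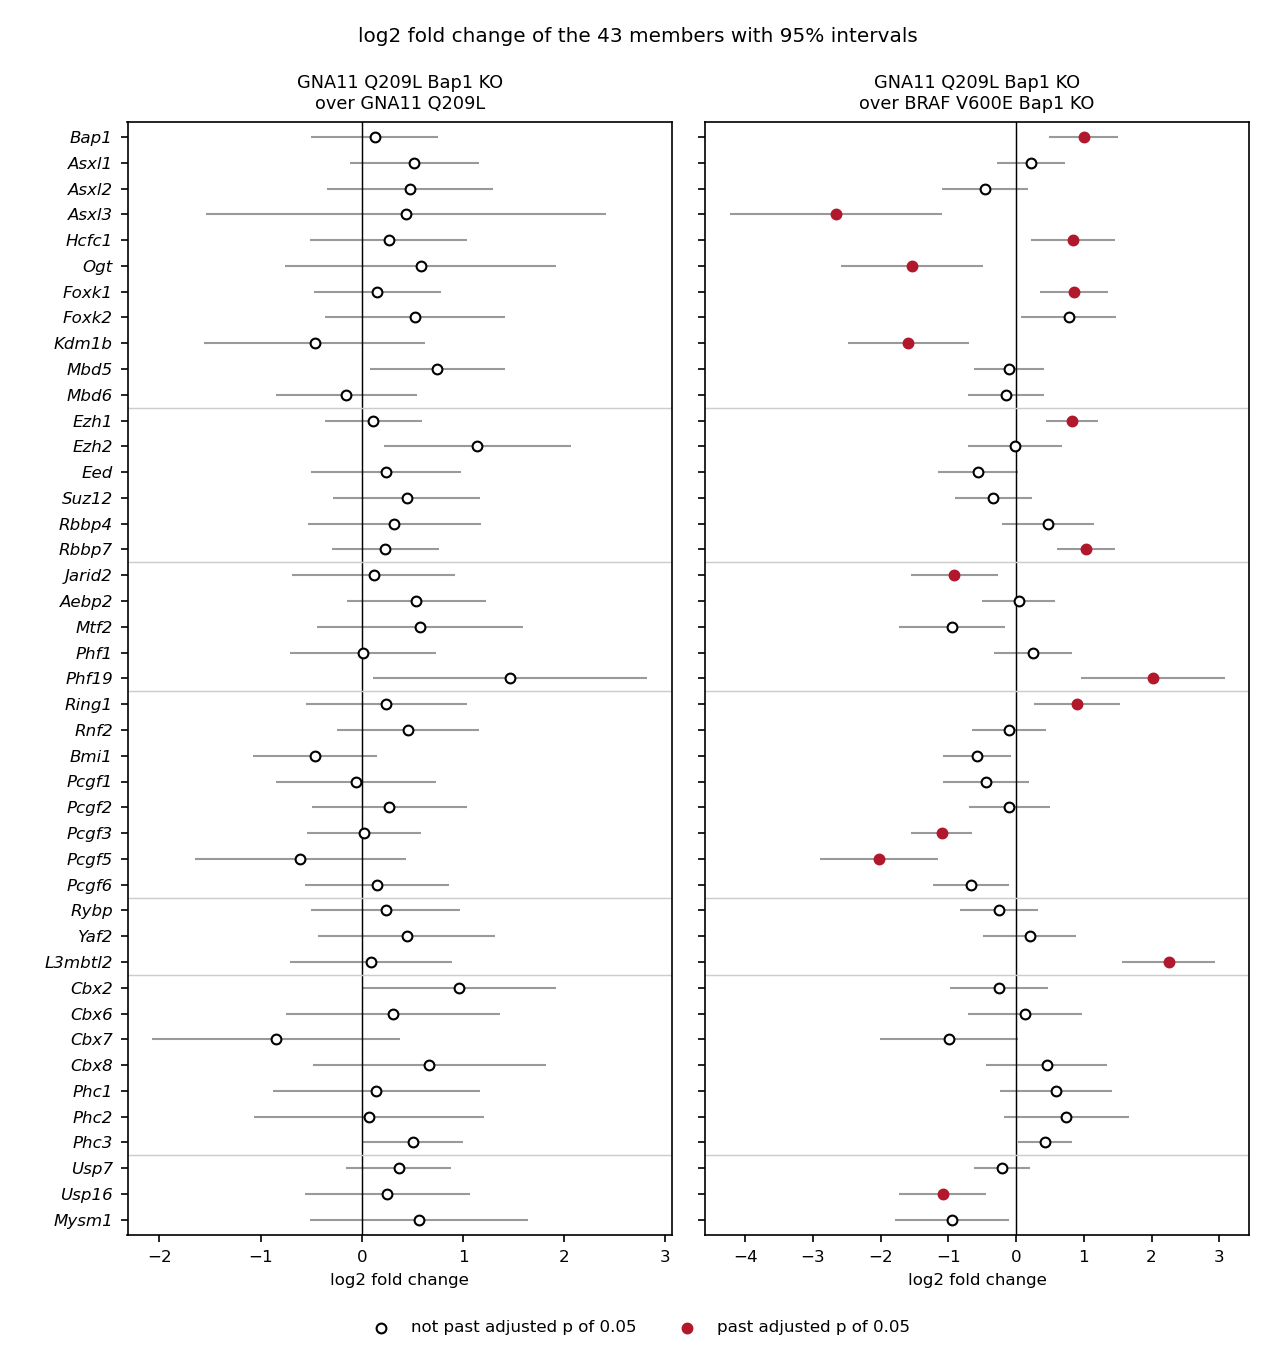
Log2 fold change (points) with its 95% interval (bars) of each of the 43 genes in GNA11 Q209L Bap1 KO over GNA11 Q209L tumours (left) and over BRAF V600E Bap1 KO tumours (right), filled where past an adjusted p of 0.05. No point is filled on the left, and 15 are on the right, with L3mbtl2 at 2.25 and Asxl3 at -2.66 as the extremes.

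The comparison of GNA11 Q209L Bap1 KO tumours with the BRAF V600E Bap1 KO tumours asks what differs between the oncogenes when Bap1 is labelled KO in both. These genotypes also differ in melanocyte markers and CreERT2, as given above. Such differences cannot be told apart from the oncogene here. Of the 43 genes, 15 passed the threshold (34.9%, against 41.2% of all genes), 8 higher in GNA11 Q209L Bap1 KO tumours (18.6%, against 16.5%) and 7 lower (16.3%, against 24.7%). These shares are near or below the background of a comparison in which 9 of 10 melanocyte markers also passed. The genes that rose were L3mbtl2, Rbbp7, Ezh1, Bap1, Phf19, Foxk1, Ring1 and Hcfc1, and those that fell were Pcgf3, Pcgf5, Kdm1b, Asxl3, Usp16, Ogt and Jarid2. The median log2 fold change was -0.10 for the 43 genes and -0.26 over all genes tested. With library totals in place of TMM the median over all genes moved to -0.64, the split among the 43 was 3 higher and 14 lower, and the share of calls that were higher over all genes changed to 23.4%, against 40.1% with TMM. Bap1, Hcfc1, Foxk1, Ezh1 and Ring1 then lost their calls, with adjusted p between 0.0579 and 0.153. Without BRAF V600E Bap1 KO replicates 2 and 4 it was 2 higher and 5 lower, and these 7, L3mbtl2, Rbbp7, Asxl3, Jarid2, Pcgf3, Pcgf5 and Usp16, were all among the 15. The other 8 then had adjusted p between 0.0522 and 0.267. Without BRAF V600E Bap1 KO replicate 4 alone, the library with salivary markers, 13 of the 15 were called, Hcfc1 and Jarid2 were not, and Bmi1 was. Groups did not overlap for 16 of the 43 genes (37.2%, against 31.8% of all genes).

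In the BAP1 complex, 3 of 11 genes rose in GNA11 Q209L Bap1 KO over BRAF V600E Bap1 KO tumours, 3 fell and 5 did not pass. Beside this and the counts by complex below, 16.5% of all genes rose and 24.7% fell. With so few genes in a complex, such counts say nothing particular about it. Besides Bap1, Foxk1, a forkhead factor that brings BAP1 to DNA, had 99.5, 112, 91.6, 90.3 and 108 CPM in GNA11 Q209L Bap1 KO tumours, 58.2, 39.5, 61.2 and 62.8 CPM in BRAF V600E Bap1 KO tumours and 61.8 and 118 CPM in GNA11 Q209L tumours. Every GNA11 Q209L Bap1 KO tumour was above every BRAF V600E Bap1 KO tumour, and the rise was 0.86 ± 0.23 (SE, adjusted p = 0.0149 by edgeR's quasi-likelihood test). Hcfc1, the X-linked host cell factor bound by BAP1, had 215, 333, 197, 162 and 233 CPM in GNA11 Q209L Bap1 KO tumours, 185, 103, 109 and 114 CPM in BRAF V600E Bap1 KO tumours and 145 and 235 CPM in GNA11 Q209L tumours. BRAF V600E Bap1 KO replicate 1 overlaps the GNA11 Q209L Bap1 KO group while the other 3 are below it. Hcfc1 rose by 0.84 ± 0.28 (SE, adjusted p = 0.0366), and this call was lost, with adjusted p between 0.0563 and 0.0905, without any 1 of GNA11 Q209L Bap1 KO replicates 1, 2 and 5 and BRAF V600E Bap1 KO replicates 2, 3 and 4. It was also lost, at 0.0594, with the 2 libraries of shared title number summed.

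Ogt, the X-linked O-GlcNAc transferase that modifies HCFC1, had the widest range of this complex in CPM. Its level was 283, 113, 283, 258 and 97.96 CPM in GNA11 Q209L Bap1 KO tumours, 836, 907, 332 and 331 CPM in BRAF V600E Bap1 KO tumours and 192 and 84.3 CPM in GNA11 Q209L tumours. BRAF V600E Bap1 KO replicates 1 and 2 stand apart from all other libraries, and the 2 others lie just above the highest GNA11 Q209L Bap1 KO tumour. Ogt fell by 1.54 ± 0.47 (SE, adjusted p = 0.0252 by edgeR's quasi-likelihood test). The call was lost without GNA11 Q209L Bap1 KO replicate 2 or 5 or BRAF V600E Bap1 KO replicate 1 or 2 (adjusted p between 0.0546 and 0.0675).

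Kdm1b, a histone demethylase found with the BAP1 complex, had 8.25, 5.70, 5.41, 11.4 and 9.28 CPM in GNA11 Q209L Bap1 KO tumours, 11.99, 15.98, 26.5 and 42.1 CPM in BRAF V600E Bap1 KO tumours and 13.9 and 8.25 CPM in GNA11 Q209L tumours. It fell by 1.59 ± 0.41 (SE, adjusted p = 0.0123), and the lowest BRAF V600E Bap1 KO tumour was just above the highest GNA11 Q209L Bap1 KO tumour. Asxl3, the low-abundance ASXL paralog known from neural tissue, had 0.271, 0.498, 1.79, 0.857 and 0.864 CPM in GNA11 Q209L Bap1 KO tumours, 14.0, 3.03, 2.30 and 2.36 CPM in BRAF V600E Bap1 KO tumours and 0.680 and 0.580 CPM in GNA11 Q209L tumours. Replicate 1 of BRAF V600E Bap1 KO stands far above the other 3, which are themselves above every GNA11 tumour. In GNA11 Q209L Bap1 KO tumours Asxl3 fell by 2.66 ± 0.71 (SE, adjusted p = 0.0145 by edgeR's quasi-likelihood test). Without BRAF V600E Bap1 KO replicate 1 its log2 fold change was -1.58 with an adjusted p of 0.0454, and DESeq2 gave it no adjusted p. At the depths of these libraries 3 counts make 0.0337 to 0.166 CPM, and Asxl3 had 5 counts in GNA11 Q209L Bap1 KO replicate 1, the fewest of any library.

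Xist, the RNA of the inactive X, was at 99.8 CPM or more in GNA11 Q209L Bap1 KO replicate 3, BRAF V600E Bap1 KO replicates 1 and 3 and both GNA11 Q209L tumours, and at most 1.42 CPM in the 6 others. Hcfc1, Ogt and Rbbp7 are the X-linked genes of the 43. With log2 CPM of Xist as a covariate, log2 fold changes over BRAF V600E Bap1 KO tumours were 0.85 for Hcfc1 (adjusted p = 0.0591 by edgeR), -1.52 for Ogt (0.04) and 1.04 for Rbbp7 (0.00805). Jarid2, which is not X-linked, also lost its call with that covariate, at -0.85 and an adjusted p of 0.0548.

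**Figure D3:**
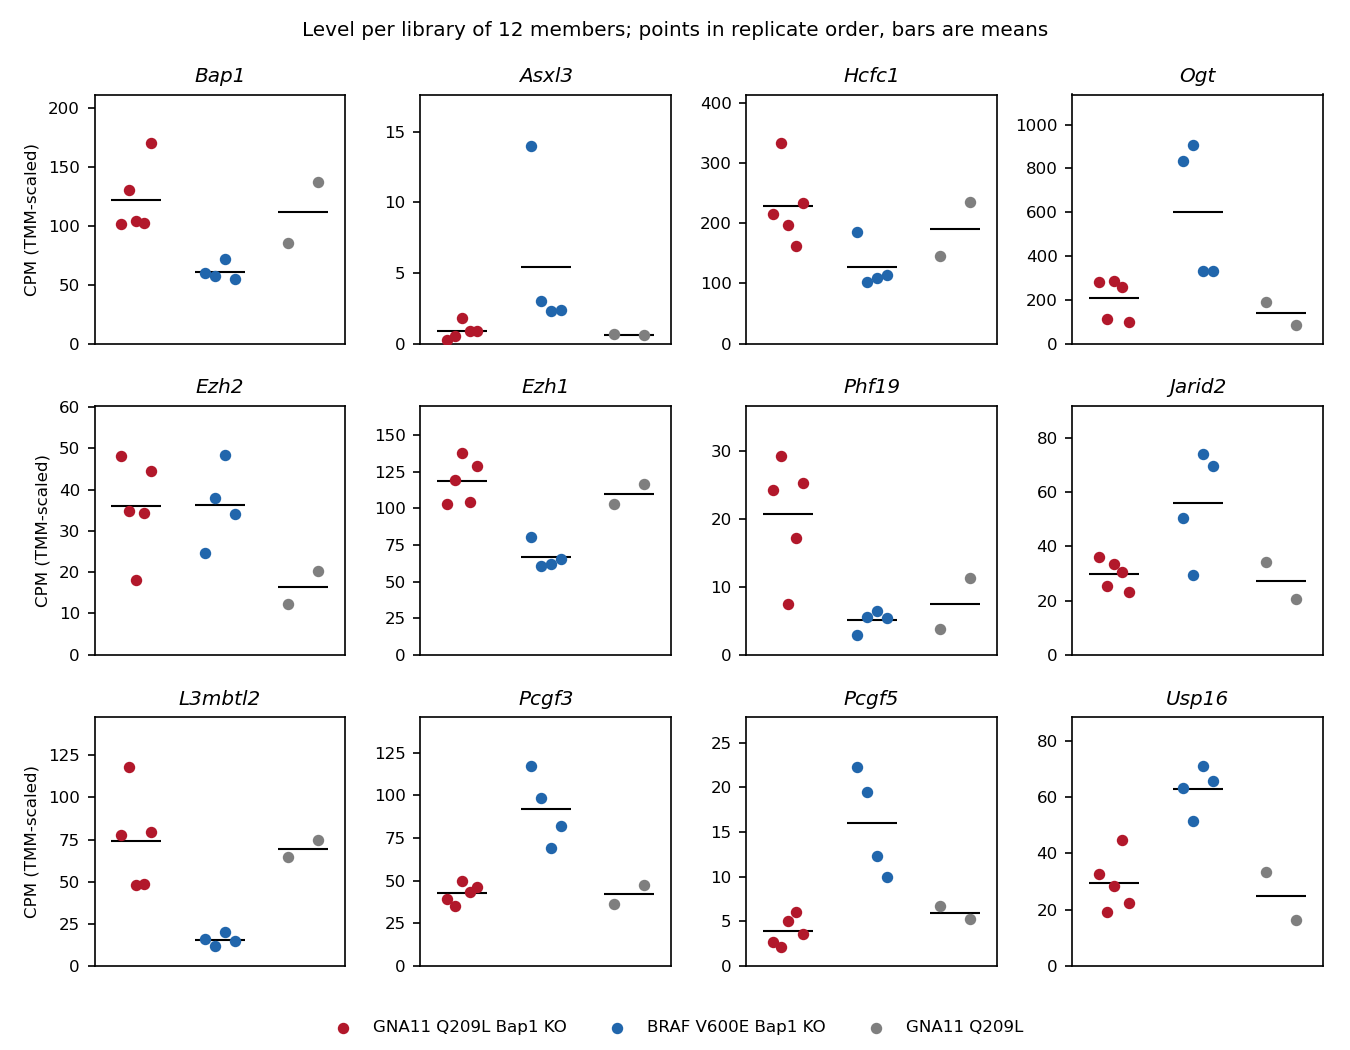
TMM-scaled CPM of 12 genes in each library (points, in replicate order) with the mean of each genotype (bars), all axes starting at 0. The GNA11 Q209L Bap1 KO and GNA11 Q209L points share a range for L3mbtl2, Pcgf3, Ezh1 and Bap1, and the BRAF V600E Bap1 KO points lie apart from them. Ezh2 shows the other arrangement, with the BRAF V600E Bap1 KO points inside or near the GNA11 Q209L Bap1 KO range.

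Among the PRC2 core, Ezh1 and Rbbp7 rose in GNA11 Q209L Bap1 KO over BRAF V600E Bap1 KO tumours and the other 4 did not pass. Of all genes, 16.5% rose. Ezh1, the methyltransferase of non-dividing cells, had 103, 119, 138, 104 and 129 CPM in GNA11 Q209L Bap1 KO tumours, 80.5, 60.5, 61.8 and 65.4 CPM in BRAF V600E Bap1 KO tumours and 103 and 116 CPM in GNA11 Q209L tumours. All 4 BRAF V600E Bap1 KO tumours were below all other tumours, and the rise was 0.82 ± 0.18 (SE, adjusted p = 0.00573 by edgeR's quasi-likelihood test). Rbbp7, a histone chaperone that PRC2 shares with other complexes, had 174, 173, 173, 215 and 225 CPM in GNA11 Q209L Bap1 KO tumours, 121, 87.4, 83.2 and 83.1 CPM in BRAF V600E Bap1 KO tumours and 159.6 and 167 CPM in GNA11 Q209L tumours. Again no BRAF V600E Bap1 KO tumour reached the lowest GNA11 tumour, and the rise was 1.04 ± 0.19 (SE, adjusted p = 0.00337). For Ezh2 the log2 fold change was -0.02 ± 0.31 (SE, 95% interval -0.71 to 0.68), and Eed, the H3K27me3 reader, and the scaffold Suz12 had -0.56 and -0.34.

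Of the 5 PRC2 accessory genes, Phf19 rose, as given above, Jarid2 fell and 3 did not pass. Jarid2, a PRC2 recruiter of the branch that holds Aebp2, had 36.0, 25.5, 33.4, 30.6 and 23.3 CPM in GNA11 Q209L Bap1 KO tumours, 50.7, 29.5, 74.0 and 69.9 CPM in BRAF V600E Bap1 KO tumours and 34.1 and 20.7 CPM in GNA11 Q209L tumours. BRAF V600E Bap1 KO replicate 2 lies within the GNA11 Q209L Bap1 KO range and the other 3 above it. Jarid2 fell by 0.91 ± 0.29 (SE, adjusted p = 0.0287 by edgeR's quasi-likelihood test), and the call was lost, with adjusted p between 0.0549 and 0.0807, without any 1 of GNA11 Q209L Bap1 KO replicates 2, 4 and 5 and BRAF V600E Bap1 KO replicates 3 and 4. Mtf2, the paralog of Phf19, had 24.3, 14.4, 27.7, 21.6 and 15.3 CPM in GNA11 Q209L Bap1 KO tumours, 30.6, 49.2, 50.01 and 29.6 CPM in BRAF V600E Bap1 KO tumours and 20.99 and 6.64 CPM in GNA11 Q209L tumours. It did not pass, its log2 fold change being -0.95 ± 0.36 (± SE, with adjusted p = 0.0536), although the groups do not overlap. Mtf2 was called by DESeq2, by limma voom and by edgeR with only the genotypes compared. Phf1, the third Polycomb-like gene, had a log2 fold change of 0.25, and Aebp2 of 0.04.

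In the RING and PCGF group, Ring1 rose, Pcgf3 and Pcgf5 fell, and 5 of 8 genes did not pass. The shares of all genes were 16.5% higher and 24.7% lower. The ubiquitin ligase Ring1 had 29.2, 52.0, 34.2, 23.7 and 53.6 CPM in GNA11 Q209L Bap1 KO tumours, 21.4, 14.8, 22.8 and 23.5 CPM in BRAF V600E Bap1 KO tumours and 28.4 and 36.8 CPM in GNA11 Q209L tumours. It rose by 0.90 ± 0.29 (SE, adjusted p = 0.0306 by edgeR's quasi-likelihood test), with the lowest GNA11 Q209L Bap1 KO tumour barely above the highest BRAF V600E Bap1 KO tumour, and the call was lost without GNA11 Q209L Bap1 KO replicate 2 or 5 or BRAF V600E Bap1 KO replicate 2 or 3 (adjusted p between 0.0508 and 0.0771). Its paralog Rnf2 had a log2 fold change of -0.11 ± 0.25 (SE, 95% interval -0.65 to 0.44).

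Pcgf3 and Pcgf5 are closely related PCGF proteins of variant PRC1 complexes known in mouse embryonic stem cells for spreading H2A ubiquitin widely. Pcgf3 had 39.5, 35.1, 49.6, 43.6 and 46.2 CPM in GNA11 Q209L Bap1 KO tumours, 117, 98.1, 69.2 and 82.2 CPM in BRAF V600E Bap1 KO tumours and 36.5 and 47.7 CPM in GNA11 Q209L tumours, and every BRAF V600E Bap1 KO tumour exceeded every GNA11 tumour. Pcgf3 fell in GNA11 Q209L Bap1 KO tumours by 1.10 ± 0.20 (SE, adjusted p = 0.0032 by edgeR's quasi-likelihood test). Pcgf5 had 2.71, 2.16, 5.09, 6.09 and 3.60 CPM in GNA11 Q209L Bap1 KO tumours, 22.2, 19.5, 12.4 and 9.97 CPM in BRAF V600E Bap1 KO tumours and 6.67 and 5.31 CPM in GNA11 Q209L tumours, again without overlap, and fell by 2.03 ± 0.39 (SE, adjusted p = 0.00391). Pcgf6 and Bmi1 had values in the same direction that did not pass (-0.67 ± 0.25 and -0.58 ± 0.23, SE, adjusted p = 0.0549 and 0.0623), while Pcgf1 and Pcgf2 had -0.44 and -0.10.

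L3mbtl2, the histone-binding subunit of the variant PRC1 built on PCGF6, had the smallest p of the 43. Its level was 77.7, 118, 48.2, 48.4 and 79.7 CPM in GNA11 Q209L Bap1 KO tumours, 15.9, 11.7, 20.2 and 14.6 CPM in BRAF V600E Bap1 KO tumours and 64.5 and 74.8 CPM in GNA11 Q209L tumours. Every BRAF V600E Bap1 KO tumour lies below every GNA11 tumour, and GNA11 Q209L Bap1 KO replicate 2 is the highest library. The rise in GNA11 Q209L Bap1 KO over BRAF V600E Bap1 KO tumours was 2.25 ± 0.31 (SE, 4.77-fold, adjusted p = 0.000849 by edgeR's quasi-likelihood test). The 2 other variant partners, Rybp and Yaf2, did not pass, with log2 fold changes of -0.25 ± 0.26 and 0.20 ± 0.31 (SE). None of the 7 CBX and PHC genes passed (against 41.2% of all genes), and the smallest adjusted p among them was 0.0767, for Phc3. Cbx7, with 16.1 to 35.4 CPM in GNA11 Q209L Bap1 KO tumours and 14.5 to 95.9 CPM in BRAF V600E Bap1 KO tumours, had the largest value there, -0.99 ± 0.46 (SE).

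Usp16, a deubiquitinase of H2A that acts in cell division, fell and the 2 other deubiquitinases did not pass. Usp16 had 32.8, 19.3, 28.3, 44.8 and 22.5 CPM in GNA11 Q209L Bap1 KO tumours, 63.2, 51.5, 71.0 and 65.6 CPM in BRAF V600E Bap1 KO tumours and 33.3 and 16.3 CPM in GNA11 Q209L tumours. No BRAF V600E Bap1 KO tumour was as low as any GNA11 tumour, and Usp16 fell by 1.09 ± 0.29 (SE, adjusted p = 0.0146 by edgeR's quasi-likelihood test). Mysm1, another H2A deubiquitinase, had 13.4 to 40.3 CPM in GNA11 Q209L Bap1 KO tumours and 39.9 to 74.6 CPM in BRAF V600E Bap1 KO tumours, with a log2 fold change of -0.95 ± 0.38 (± SE, with an adjusted p of 0.0654). Usp7, a partner of PRC1 and of p53 regulation, had -0.21 ± 0.19 (SE, 95% interval -0.62 to 0.20).

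The 20 genes without a value in every library above are Asxl2, Foxk2, Mbd6, Eed, Suz12, Rbbp4, Phf1, Rnf2, Pcgf1, Pcgf2, Pcgf6, Rybp, Yaf2, Cbx6, Cbx7, Cbx8, Phc1, Phc2, Usp7 and Mysm1. None of them passed the threshold in any comparison of the main edgeR fit. Against BRAF V600E Bap1 KO tumours, DESeq2 and limma voom both called Pcgf6 and Mysm1 in GNA11 Q209L Bap1 KO tumours, and limma voom Foxk2 as well. Per kilobase of exon, Phc2 and Rbbp4 were the most abundant of them in GNA11 Q209L Bap1 KO tumours, as given above, and Rybp and Cbx8 the least, with 1.99 ± 0.364 and 2.82 ± 0.503 CPM per kb (SD). The widest BRAF V600E Bap1 KO ranges in proportion were those of Cbx7, 14.5 to 95.9 CPM, Cbx8, 2.59 to 12.7 CPM, and Phc1, 12.3 to 58.6 CPM.

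The comparison of BRAF V600E Bap1 KO tumours with the GNA11 Q209L tumours changes oncogene and Bap1 label together and isolates neither, and it shares its libraries with the comparisons above. Here 4 of the 43 genes passed (9.3%, against 15.2% of all genes), 2 higher in BRAF V600E Bap1 KO tumours (4.65%, against 5.93%) and 2 lower (4.65%, against 9.27%). L3mbtl2 fell by 2.16 ± 0.36 (SE, adjusted p = 0.0065) and Rbbp7 by 0.80 ± 0.24 (adjusted p = 0.0467), while Pcgf3 rose by 1.12 ± 0.28 (adjusted p = 0.0276) and Usp16 by 1.34 ± 0.40 (adjusted p = 0.0474), all by edgeR's quasi-likelihood test. DESeq2 called 15 of the 43 here, these 4 among them. It also called more of all genes than edgeR did, as given at the end, so that count says nothing particular about the 43. No gene of the 43 kept a call without GNA11 Q209L replicate 2, and without GNA11 Q209L replicate 1 only L3mbtl2 of the 4 did. L3mbtl2 was also the only gene of the 43 called with Xist as a covariate, where Rbbp7 had an adjusted p of 0.0907, Pcgf3 of 0.0539 and Usp16 of 0.0812, and the only one without BRAF V600E Bap1 KO replicates 2 and 4. Rbbp7 and Usp16 lost their calls without any 1 of GNA11 Q209L Bap1 KO replicates 1 and 3 and BRAF V600E Bap1 KO replicates 2, 3 and 4 (adjusted p between 0.0541 and 0.0845), and Usp16 without BRAF V600E Bap1 KO replicate 1 as well (0.0582). With library totals Rbbp7 had -0.38 and an adjusted p of 0.286. The next 4 genes by p were Ezh1 (-0.71 ± 0.22, adjusted p = 0.0503), Ogt (2.12 ± 0.68, 0.0569), Mtf2 (1.53 ± 0.50, 0.0601) and Bap1 (-0.87 ± 0.28, 0.0601).

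Ratios of related genes within a library do not depend on the scaling between libraries. The log2 ratio of Ezh2 to Ezh1 was -2.93 to -1.10 in GNA11 Q209L Bap1 KO tumours, -1.70 to -0.35 in BRAF V600E Bap1 KO tumours and -3.06 and -2.52 in GNA11 Q209L tumours, so only the BRAF V600E Bap1 KO and GNA11 Q209L ranges are apart. Ring1 to Rnf2 was -1.27 to 0.40 in GNA11 Q209L Bap1 KO tumours, -2.30 to -0.73 in BRAF V600E Bap1 KO tumours and -0.71 and 0.31 in GNA11 Q209L tumours, with the same pair of ranges apart. Cbx2 to Cbx7 was -1.43 to -0.13 in GNA11 Q209L Bap1 KO tumours, above the -3.64 and -1.94 of GNA11 Q209L tumours, and Foxk1 to Foxk2 was -0.71 to -0.34 in GNA11 Q209L Bap1 KO tumours, below the -0.20 and -0.15 of GNA11 Q209L tumours. None of the 9 ratios separated GNA11 Q209L Bap1 KO from BRAF V600E Bap1 KO tumours.

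**Figure D4:**
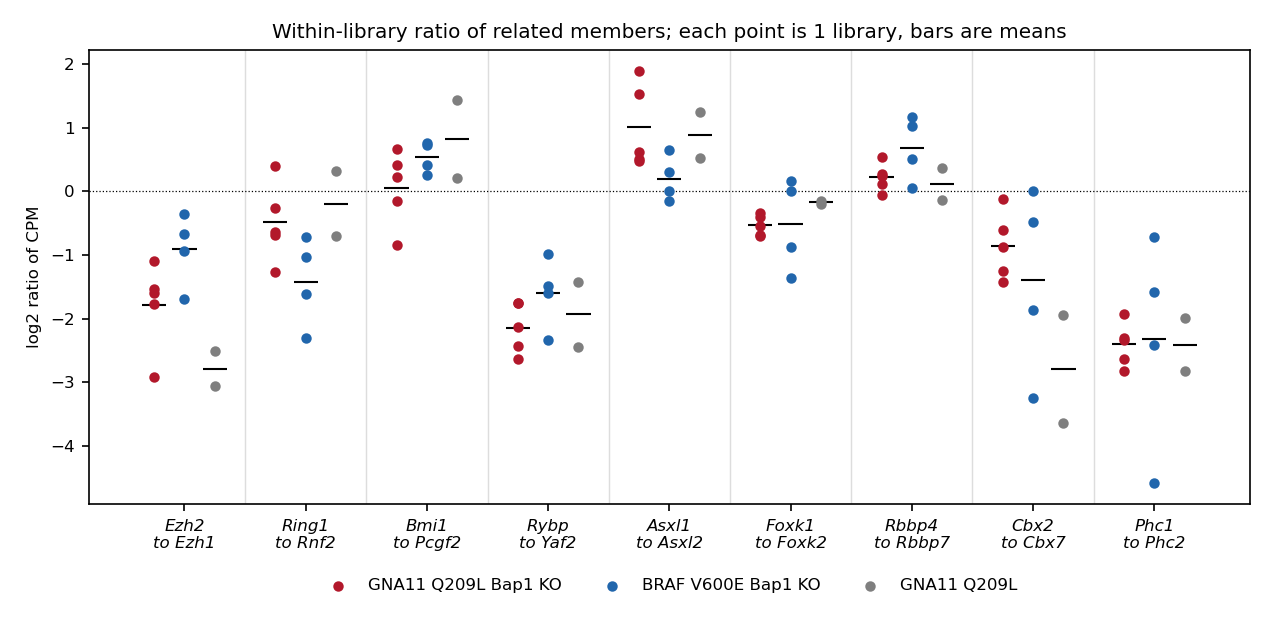
Within-library log2 ratio of CPM for 9 pairs of related genes, with a point for each library and a bar for the mean of each genotype. Only the Foxk1 to Foxk2 and Cbx2 to Cbx7 columns have GNA11 Q209L Bap1 KO and GNA11 Q209L points that do not overlap, and in every column the BRAF V600E Bap1 KO points overlap those of GNA11 Q209L Bap1 KO.

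In 3 of the 7 GNA11 libraries, GNA11 Q209L Bap1 KO replicates 2 and 5 and GNA11 Q209L replicate 2, a trio chosen after the values were seen, several genes had their lowest or highest levels, whatever the Bap1 label. These were the 3 lowest of the 7 libraries for Asxl2, Ogt, Eed, Jarid2, Mtf2, Usp16 and Mysm1 (16.3% of the 43 genes, against 8.39% of all genes tested). They were the 3 highest for Bap1, Hcfc1, Foxk1, Rbbp4, Phf1, Ring1, Phc1 and Phc2 (18.6%, against 10.4%). A higher share among the 43 can come from that choice of libraries alone, so these shares set the 43 genes apart from no others.

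Other genes of the pathway come from lists of partners and antagonists. None of 28 accessory partners of PRC1 and PRC2, 10 other histone deubiquitinase genes, 16 genes of H3K27 demethylases and COMPASS, and 11 BAP1-related ubiquitin factors passed in GNA11 Q209L Bap1 KO tumours against GNA11 Q209L tumours by edgeR. The numbers at an unadjusted p under 0.05 were 4 accessory partners, no gene of the 2 middle lists and 2 BAP1-related factors, beside 11.4% of all genes. The smallest p among the accessory partners was that of Sfmbt2, an MBT-domain protein, with 5.18 ± 2.06 CPM in GNA11 Q209L Bap1 KO tumours and 0.791 ± 0.362 CPM in GNA11 Q209L tumours (SD), with a log2 fold change of 2.70 ± 0.73 (SE) and an adjusted p of 0.242. For Epop, a PRC2 cofactor listed under an older symbol, it was 2.12 ± 0.78 (SE, adjusted p of 0.354 by edgeR). For Bard1, the partner of BRCA1, it was 1.46 ± 0.53 (SE, adjusted p of 0.354).

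Against BRAF V600E Bap1 KO tumours, 3 of the 28 accessory partners rose (10.7%, against 16.5% of all genes) and 4 fell (14.3%, against 24.7%). Max, a partner of MGA, rose. It had 122 ± 13.3 CPM in GNA11 Q209L Bap1 KO tumours and 73.6 ± 11.3 CPM in BRAF V600E Bap1 KO tumours (SD), with a log2 fold change of 0.72 ± 0.17 (SE) and an adjusted p of 0.00972. Dcaf7, a partner of PCGF3 and PCGF5, rose by 0.94 ± 0.28 (SE, adjusted p = 0.0214), and Tfdp1, the E2F partner, and Mbtd1, an MBT-domain protein, fell by 1.05 ± 0.28 and 1.07 ± 0.29 (SE, adjusted p = 0.0137 and 0.015). Csnk2b also rose, and Hdac2 and Cbx3 fell, named here only to complete the count. None of the 10 other deubiquitinase genes rose and 2 fell (20%, against 24.7%), Usp3 by 1.23 ± 0.26 and the SAGA subunit Eny2 by 1.17 ± 0.30 (SE, adjusted p = 0.00558 and 0.0131).

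Of 16 genes of H3K27 demethylases and COMPASS 2 rose and 2 fell in that comparison (12.5% each way, against 16.5% and 24.7% of all genes). The demethylase Kdm6b fell, at 47.5 ± 3.05 CPM in GNA11 Q209L Bap1 KO tumours and 102 ± 29.2 CPM in BRAF V600E Bap1 KO tumours (SD), with a log2 fold change of -1.10 ± 0.20 (SE) and an adjusted p of 0.00302. The H3K4 methyltransferase Kmt2b fell by 0.69 ± 0.18 (SE, adjusted p = 0.0142), and Men1 and Paxip1 rose (0.88 ± 0.25 and 0.52 ± 0.18, SE). Of 11 BAP1-related ubiquitin factors 1 rose and 1 fell (9.09% each way, against the same shares). Brca1, the ubiquitin ligase after which BAP1 was named, rose. It had 149 ± 49.3 CPM in GNA11 Q209L Bap1 KO tumours and 12.4 ± 4.23 CPM in BRAF V600E Bap1 KO tumours (SD), with a log2 fold change of 3.58 ± 0.39 (SE) and an adjusted p of 0.000292. The proteasomal deubiquitinase Uchl5 fell by 0.91 ± 0.26 (SE, adjusted p = 0.0183). In BRAF V600E Bap1 KO over GNA11 Q209L tumours Tfdp1, Cbx3, Mbtd1, Sfmbt2 and Lcor rose among the accessory partners (17.9%, against 5.93% of all genes) and Max fell (3.57%, against 9.27%), no deubiquitinase, demethylase or COMPASS gene of these lists passed, and of the BAP1-related factors (9.09%, against 9.27%) Brca1 fell by 3.55 ± 0.44 (SE, adjusted p = 0.00163).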

How the data were processed

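The authors deposited a table of estimated counts per gene for 11 libraries, unnormalized, with gene IDs and symbols. Libraries came from 1 ug of total RNA, per the labels' protocols. STAR and the build mm9 come from the submitters' processing notes. The STAR version, counting program, annotation and strand setting are not given in these sources, so overlapping genes and close paralogs may share reads. The values were whole, so rounding changed nothing. Of 18769 lines, 7 repeats and 6 transgene sequences were set aside, and 21 symbols that had become dates were restored from their gene IDs.

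Counts were scaled by TMM and tested with edgeR 4.0.16 (R 4.3.3, filterByExpr by genotype, glmQLFit and glmQLFTest, two-sided, genotype as the only term). Replicates were numbered in accession order. All 11 libraries share the estimate of spread because GNA11 Q209L has 2. The fit had a common dispersion of 0.419 and 2.82 prior degrees of freedom. DESeq2 1.42.0, limma 3.58.1 voom, other scalings and filters, summed libraries, Xist as a covariate and leave-one-out fits were alternatives. On the TMM scale a count of 3 makes 0.0337 to 0.166 CPM, for counting error only.

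Named in full are Bap1, genes past the threshold and, with under 8 of these, the 8 with the smallest p, plus up to 4 per pathway list. Lists held 159 entries, 7 of them found under older symbols and 6 not found. The genes, lists and rules were chosen with earlier results of these data known. Exon lengths come from GENCODE and promoters from RefSeq (GRCm38.p6). Figures used matplotlib.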

Additional observations from a re-analysis of the deposited data

Results flagged for a closer look

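Of 86 groups of 4 or 5 libraries tested, 6 had a library far from the others by Dixon's criterion, and chance alone gives about 1 in 20 groups. GNA11 Q209L Bap1 KO replicate 4 was the lowest of its genotype for Asxl1 (81.4 CPM, with 106.9 CPM next) and for Cbx2 (11.9 CPM, with 14.8 CPM next). BRAF V600E Bap1 KO replicate 1 was the highest of its genotype for Asxl3 (14.0 CPM, with 3.03 CPM next), for Hcfc1 (184.6 CPM, with 114 CPM next) and for Rbbp7 (121 CPM, with 87.4 CPM next). BRAF V600E Bap1 KO replicate 3 was the highest for Phf1, at 69.8 CPM with 39.2 CPM next. With all 11 libraries 15 of the 43 genes (34.9%) were called in GNA11 Q209L Bap1 KO over BRAF V600E Bap1 KO tumours, against 7146 of all genes (41.2%). Without BRAF V600E Bap1 KO replicate 1 it was 18 of the 43, among 7176 of all genes, so these counts say nothing particular about the 43. BRAF V600E Bap1 KO replicate 1 has the most counts of all libraries, 81035135, and replicate 3 the highest sum of keratinocyte markers, 14395 CPM. The part of either in these values was not tested.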

How the results depend on the processing

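No paired analysis was possible because the labels carry no replicate numbers shared between genotypes. In GNA11 Q209L Bap1 KO over GNA11 Q209L tumours the count of genes called, 5 as reported, was 3 with RLE factors, without a filter and with at least 1 CPM in 2 libraries, 439 with DESeq2, 64 with these 2 genotypes alone, 0 with the 2 libraries of shared number summed, 0 with Xist as a covariate (unadjusted p under 0.05 for 1743 and 1304 genes), and 0 to 13 when leaving out 1 library, while the count among the 43 was 0 in each of these. Bap1 there ran between -0.18 (without GNA11 Q209L replicate 1) and 0.58 (without GNA11 Q209L replicate 2), and was -0.05 without GNA11 Q209L Bap1 KO replicate 5. In GNA11 Q209L Bap1 KO over BRAF V600E Bap1 KO tumours 7146 genes and 15 of the 43 were called, 5448 to 7176 and 11 to 18 when leaving out 1 library, and 3571 and 7 without the 2 BRAF V600E Bap1 KO libraries whose Bap1 status is NA at the foot of the table, an alternative chosen after seeing the data. With library totals the median of the 43 was -0.51 there, against -0.64 over all genes. In BRAF V600E Bap1 KO over GNA11 Q209L tumours it was 0.82, against 0.66 over all genes. In BRAF V600E Bap1 KO over GNA11 Q209L tumours 2637 genes and 4 of the 43 were called, against 5423 and 15 with DESeq2, 417 and 1 with these genotypes alone, 1191 and 1 with Xist as a covariate and 838 and 1 without the NA libraries. Library totals gave 9 of the 43 and no filter gave 2, counts that without the share of all genes say nothing particular about the 43. Leaving out 1 library gave 265 to 2867 genes and 0 to 5 of the 43, with both lowest counts without GNA11 Q209L replicate 2. The share of higher calls there was 39.0% as reported, 65.0% with library totals, 57.1% with DESeq2 and 17.0% with these genotypes alone. The causes were not tested. The 2 GNA11 Q209L libraries limit what can be detected: at a lone GNA11 Q209L library the fit assumes that it varies like the other genotypes. With a prior count of 0.5, all 27 mean ratios within libraries moved by less than 1 SD.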
